A study of Homo sapiens with 16 samples.

Results

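The genes described here build cholesterol and fatty acids or bring fatty acids into the cell. They were taken by name from the count table: 36 of its 58735 genes, of which 21 are sterol genes (HMGCS1 to STARD4) and 15 are fatty acid and lipid uptake genes (ACLY to ACSL3). Poly(A) RNA from 4 human breast cancer cell lines had been sequenced as 150 bp paired-end reads in 16 libraries, 2 per group. The groups were HCC1806 spheroids at day 10 and at day 20 after seeding with HCC1806 monolayers, BT474 spheroids at day 10 and at day 20 with BT474 monolayers, and monolayers of CAL148 and of ZR-75-30. HCC1806 and ZR-75-30 were grown in RPMI and BT474 and CAL148 in DMEM, all with 10% fetal bovine serum, so medium and line cannot be told apart between those pairs. The comparisons ask how growth as a spheroid and time in that state go with the RNA levels of these genes, and how the lines differ. Each line is a single cell line. The monolayer or spheroid state was read from the sample titles, because the treatment label gives monolayer for all 16 libraries. The labels do not say whether the 2 libraries of a group came from separate cultures, so p-values measure only the spread between these libraries.

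Cholesterol is made from acetyl-CoA through mevalonate, farnesyl pyrophosphate, squalene and lanosterol. The membrane-bound factors SREBP-1 and SREBP-2, encoded by SREBF1 and SREBF2, are cut and enter the nucleus when sterols are scarce, where SREBP-2 mainly drives sterol genes and SREBP-1 mainly drives fatty acid genes; INSIG1 holds their escort protein in the endoplasmic reticulum when sterols are plentiful. Malignant breast cells commonly make fatty acids themselves through FASN, and can also take them up through CD36 and carry them on fatty acid binding proteins.

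Depth was 29696358 to 72489002 counts per library. By general knowledge rather than by a label, the triple-negative lines are HCC1806 and CAL148, and the other two, BT474 and ZR-75-30, carry amplified ERBB2. ERBB2 stood at 114 to 220 CPM, the count scaled to library size, in HCC1806 libraries, 324 and 336 CPM in CAL148, 5888 to 7476 CPM in BT474, and 9030 and 9159 CPM in ZR-75-30. All 5 epithelial markers were detected in every group, with CDH1 at 8.36 and 9.74 CPM in ZR-75-30. The 2 HCC1806 monolayer libraries stood apart from each other. The standard deviation of the log2 difference between them over all genes was 1.87, against 0.594 and 0.606 within the HCC1806 spheroid groups at day 10 and day 20. The 13 mitochondrially encoded protein genes took 14.9% of counts in HCC1806 monolayer replicate 1 and 0.559% in replicate 2. The interferon-stimulated genes summed to 11220 and 827 CPM there, and the mitotic genes to 673 and 3562 CPM. The ZR-75-30 pair also differed, with mitochondrial shares of 1.60% in replicate 1 and 17.7% in replicate 2.

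All 36 genes had a count in at least 1 library, and all 36 passed the count filter of each comparison. CPM is scaled by the TMM factors of edgeR, which set the bulk of genes equal between libraries. In bulk RNA, a lower share of cells expressing a gene and less of its RNA per cell cannot be told apart. Expressed as group means of CPM per kilobase of gene model, SCD and FASN, the desaturase that makes oleate and the synthase that makes palmitate, were among the 3 highest of the 36 levels in all 8 groups. This did not hold in every library. In ZR-75-30 replicate 2, SCD (114 CPM) stood below PMVK (325), SQLE (183) and MSMO1 (161), which have shorter gene models. In HCC1806 monolayer replicate 1, FASN (199 CPM) stood below SCD (223), SREBF1 (210) and FABP5 (204), also shorter. Levels per kilobase averaged 644 for SCD and 367 for FASN in BT474 day 10 spheroids, and 129 and 76.8 in HCC1806 day 10 spheroids. The third was FADS2, a desaturase of polyunsaturated fatty acids, in BT474 day 10 spheroids (90.2 per kilobase). In HCC1806 day 10 spheroids it was FABP5, a cytosolic fatty acid carrier (74.9 per kilobase). PMVK, which phosphorylates phosphomevalonate, ranked next to SCD in CAL148 monolayers at 135 per kilobase, and stood at 191 per kilobase in ZR-75-30 monolayers.

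**Figure D1:**
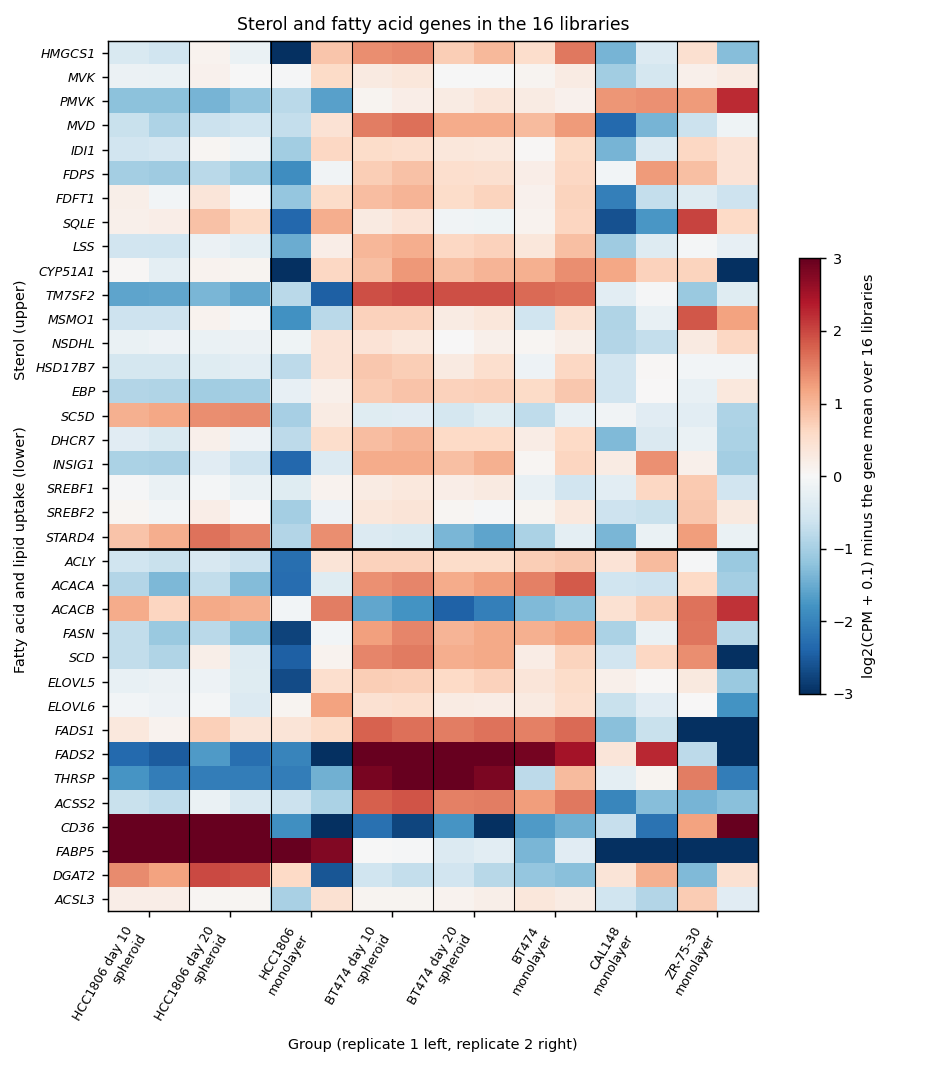
Each row is 1 of the 36 genes and each column 1 of the 16 libraries, with colour giving log2(CPM + 0.1) minus the gene's mean over the 16 libraries (red higher, blue lower, limited to 3 either way). TM7SF2, FADS2, ACSS2 and THRSP are red in BT474 spheroids, CD36 and FABP5 are red in HCC1806 spheroids, and HCC1806 monolayer replicate 1 is blue for most genes while replicate 2 is not.

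BT474 spheroids carried modestly more RNA for part of the program at day 10. Of the 36 genes, 10 were higher than in monolayers and 0 were lower at an adjusted p under 0.05 (edgeR quasi-likelihood F test, Benjamini-Hochberg adjustment over all genes), where 6.58% of all 20606 tested genes were higher, 5.67% lower and 12.2% changed in either direction. The 10 were 5 sterol genes (MVD, TM7SF2, DHCR7, INSIG1 and SREBF1) and 5 fatty acid genes (SCD, FADS2, THRSP, ACSS2 and DGAT2). The median log2 fold change was 0.26 over the 21 sterol genes and 0.20 over the 15 fatty acid genes, beside 0.00 over all genes. The count is sensitive to single libraries: it was 2 without BT474 day 10 spheroid replicate 2, 4 without BT474 day 10 spheroid replicate 1 and 20 without BT474 monolayer replicate 2. It was 0 when the 2 discordant HCC1806 monolayer libraries were added to the same fit, which then share 1 estimate of the spread. In the BT474 monolayers themselves, 18 of the 21 sterol genes were higher in replicate 2 than in replicate 1, with a median log2 difference of 0.42. Of all 10611 genes with a mean of at least 5 CPM in that pair, 52.6% were higher in replicate 2, and their median was 0.017. The BT474 libraries also differed by group in other measures. The mitochondrial share of counts was 4.58% and 3.04% at day 10 and 5.20% and 4.08% at day 20, against 1.91% and 1.88% in monolayers. The mitotic genes summed to 1085 and 1038 CPM at day 10 and 1086 and 1069 CPM at day 20, against 1356 and 1344 CPM in monolayers. The part of these in the values of the 36 genes was not tested.

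Among the transcription machinery, SREBF1 stood at 319 and 332 CPM in BT474 day 10 spheroids and 307 and 324 CPM in day 20 spheroids, against 232 and 180 CPM in monolayers. The spheroid and monolayer libraries did not overlap. Its log2 fold change was 0.66 ± 0.10 (SE, adjusted p = 0.00113) at day 10 and 0.62 ± 0.10 (adjusted p = 0.00154) at day 20. INSIG1, a sterol sensor that is also an SREBP target, had 177 and 177 CPM at day 10 and 152 and 170 CPM at day 20, against 85.4 and 128 CPM in monolayers. That is a log2 fold change of 0.72 ± 0.16 (adjusted p = 0.0151) at day 10 and 0.59 ± 0.16 (adjusted p = 0.0336) at day 20. SREBF2 had 362 and 377 CPM at day 10, 298 and 281 CPM at day 20, and 305 and 360 CPM in monolayers, and did not pass the test at either time.

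The enzymes that were called sit at scattered steps of the sterol route, and those not called are not shown to be unchanged. At day 10 the estimate was above 0 for 18 of the 21 sterol genes. The share of all genes above 0 was not counted. FDFT1, for example, was not called, with 299 and 318 CPM at day 10 against 172 and 252 CPM in monolayers. LSS was not called either, with 288 and 306 CPM against 183 and 269 CPM. MVD, which makes isopentenyl pyrophosphate from phosphorylated mevalonate, had 196 and 214 CPM in BT474 day 10 spheroids, against 131 and 165 CPM in monolayers (log2 fold change 0.46 ± 0.11, adjusted p = 0.0121). DHCR7, the last reductase on the route to cholesterol, had 306 and 325 CPM at day 10, against 190 and 244 CPM in monolayers (0.53 ± 0.12, adjusted p = 0.0110). TM7SF2, a sterol reductase acting after lanosterol, had 273 and 288 CPM at day 10 and 271 and 271 CPM at day 20, against 232 and 222 CPM in monolayers. Its changes were small, 0.30 ± 0.08 (adjusted p = 0.0202) and 0.25 ± 0.08 (adjusted p = 0.0377). HMGCS1, which condenses acetyl units ahead of mevalonate, had 386 and 401 CPM at day 10, against 211 and 442 CPM in monolayers. The spheroid values lay between the 2 monolayer values, and it did not pass the test.

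On the fatty acid side, SCD had 3368 and 3537 CPM in BT474 day 10 spheroids and 2588 and 2664 CPM in day 20 spheroids, against 1402 and 1934 CPM in monolayers. The log2 fold change was 1.04 ± 0.20 at day 10 (adjusted p = 0.0163), and the day 20 value did not pass the test although the libraries did not overlap. FADS2 had 985 and 1004 CPM at day 10 and 946 and 952 CPM at day 20, against 692 and 531 CPM in monolayers. Its log2 fold changes were 0.70 ± 0.17 (adjusted p = 0.0277) and 0.63 ± 0.17 (adjusted p = 0.0357). FADS1 lies on the opposite strand inside FADS2 and the strand setting of the counting is not given in the sources used here, so reads of the pair may not be separated; FADS1 itself stayed within 130 to 154 CPM in all 6 BT474 libraries.

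THRSP, a small nuclear protein that promotes lipogenesis, showed the widest fold in BT474, from a low level. It had 2.91 and 3.75 CPM at day 10 and 3.79 and 2.88 CPM at day 20, against 0.143 and 0.707 CPM in monolayers, which is 120, 267, 142 and 110 counts in the spheroid libraries and 6 and 30 in the monolayer libraries. The log2 fold change was 2.96 at both times (SE 0.53, adjusted p = 0.00281 at day 10 and 0.00271 at day 20). THRSP passed the count filter of this fit through the BT474 spheroid libraries alone, where it is high. These p-values should therefore not be read as separate support. NDUFC2 lies on the opposite strand and had 10.99 and 10.6 CPM at day 10 and 11.7 and 12.6 CPM at day 20, against 7.79 and 9.22 CPM in monolayers; its part in the THRSP count was not tested. ACSS2, which makes acetyl-CoA from acetate, had 314 and 334 CPM at day 10, against 216 and 269 CPM in monolayers (0.41 ± 0.11, adjusted p = 0.0233). DGAT2, which completes triglyceride, had 5.31 and 4.87 CPM at day 10, against 3.54 and 3.30 CPM in monolayers (0.56 ± 0.16, adjusted p = 0.0323). FASN itself had 3155 and 3726 CPM at day 10, 2737 and 2959 CPM at day 20, and 2852 and 3119 CPM in monolayers, and passed the test at neither time.

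**Figure D2:**
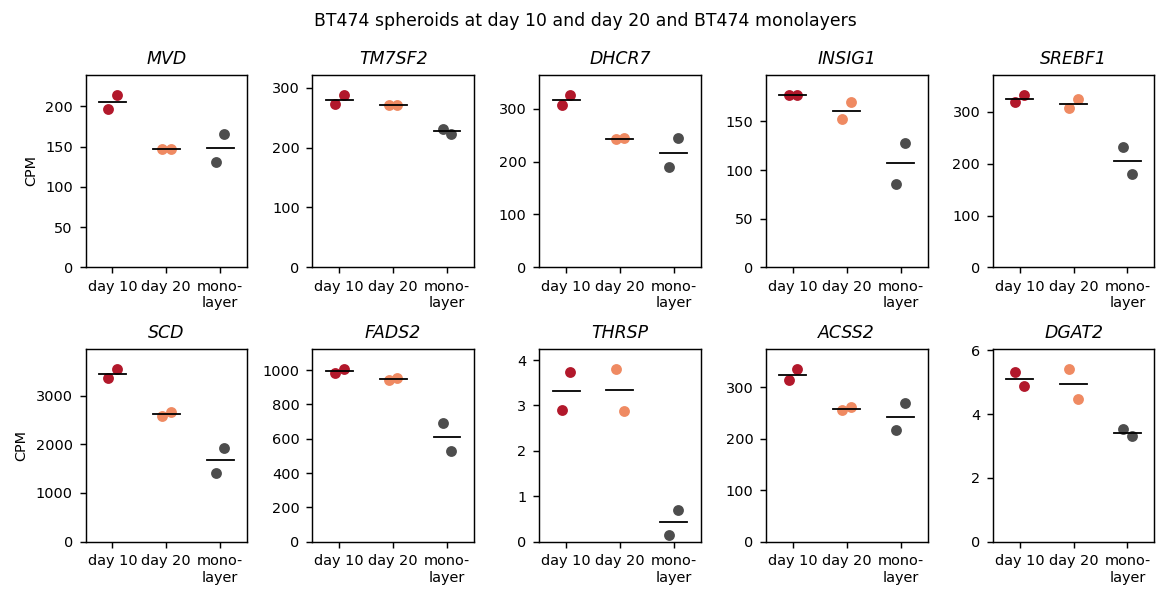
CPM of the 10 genes called higher in BT474 day 10 spheroids, 1 panel per gene with an axis from 0; points are the 2 libraries of day 10 spheroids, day 20 spheroids and monolayers, and the bar is their mean. Both day 10 libraries lie above both monolayer libraries in each panel; at day 20 MVD, DHCR7 and ACSS2 overlap the monolayers.

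By day 20 the BT474 picture was mixed. Against monolayers, 6 of the 36 genes were higher and 4 were lower, where 7.40% and 7.24% of all genes were, 14.6% in either direction. The 6 higher genes were TM7SF2, INSIG1, SREBF1, FADS2, THRSP and DGAT2. The 4 lower ones were SQLE, the squalene epoxidase (-0.53 ± 0.15, adjusted p = 0.0419), STARD4, a cytosolic cholesterol carrier (-0.91 ± 0.20, adjusted p = 0.00784), ACLY, which makes cytosolic acetyl-CoA from citrate (-0.23 ± 0.07, adjusted p = 0.0491), and ACACB, the acetyl-CoA carboxylase of the mitochondrial surface (0.499-fold, adjusted p = 0.0111). SQLE had 113 and 111 CPM at day 20, against 132 and 191 CPM in monolayers. ACACB had 1.36 and 1.80 CPM at day 20, against 3.07 and 3.28 CPM in monolayers. The 10 calls fell to 3 without BT474 day 20 spheroid replicate 2, to 4 without BT474 day 20 spheroid replicate 1 or either BT474 day 10 spheroid library, to 5 without either HCC1806 day 10 spheroid library, and to 0 when the HCC1806 monolayers shared the fit.

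Other genes of lipid metabolism moved in BT474 spheroids as well. At day 10, 3 of 10 cholesterol export and storage genes, 3 of 16 elongation and activation genes, 3 of 15 uptake and droplet genes, 1 of 6 lipid regulators and 1 of 8 oxidation genes were higher. In the same order 0, 0, 3, 0 and 2 were lower, as were 2 of 14 further sterol genes. PPARA, the nuclear receptor that switches on fatty acid oxidation, had 3.15 and 3.55 CPM at day 10 and 3.31 and 3.77 CPM at day 20, against 0.856 and 1.25 CPM in monolayers (log2 fold change 1.67 ± 0.19 at day 10, adjusted p = 9.64e-05). ABCA1, the cholesterol exporter and a target of the oxysterol receptor LXR, had 4.08 and 4.72 CPM at day 10 and 3.07 and 4.47 CPM at day 20, against 1.19 and 1.34 CPM in monolayers (1.79 ± 0.29 at day 10, adjusted p = 0.00134). SCD5, another stearoyl-CoA desaturase, had 53.3 CPM in both day 10 libraries and 63.4 and 62.8 CPM at day 20, against 29.9 and 31.2 CPM in monolayers (0.79 ± 0.09 at day 10, adjusted p = 6.80e-05). NPC2, which hands cholesterol out of lysosomes, had 116 and 120 CPM at day 10, against 71.5 and 80.8 CPM in monolayers (0.63 ± 0.08, adjusted p = 0.000217). FABP7, another fatty acid carrier, was called lower at day 10 but was at 0 in all 4 spheroid libraries and at 0.119 and 0.0943 CPM in monolayers. At day 20, 4 of the 10 export and storage genes were higher and 1 lower, and 2 of the 8 oxidation genes were higher and 2 lower.

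Promoter windows of 250 bases before to 50 bases after the annotated start were matched for 31 of the 36 genes in the RefSeq table of GRCh38.p14 (19 sterol, 12 fatty acid). The sterol regulatory element in the spelling TCACNCCAC, searched on both strands, was found in 1 of the 19 sterol genes, SREBF2, in 0 of the 12 fatty acid genes and in 1.39% of all 27305 genes. The NF-Y box CCAAT, on either strand, was found in 16 of 19 sterol genes (84.2%), in 10 of 12 fatty acid genes (83.3%) and in 39.7% of all genes. Counted per window, since genes with several starts have several chances, it was in 75.0% of sterol, 52.2% of fatty acid and 34.6% of all windows. Short stretches of 6 of them follow. SREBF2 was chosen because it holds the element, and INSIG1, MVD, SCD and THRSP were taken from the genes that changed in BT474 spheroids. HMGCS1 was added as an early step of the route. All 6 hold a CCAAT box, and a link between the box and the changes was not tested. SREBF1 and FADS2, called higher at both days, are not shown. CCAAT was in 0 of 1 SREBF1 window and in 1 of 2 FADS2 windows. Capitals mark CCAAT or its reverse complement ATTGG, and in SREBF2 also the sterol regulatory element TCACCCCAC; each is read 5′ to 3′ on the strand of its gene. The SREBF2 stretch (chr22:41832955-41833034, + strand) overlaps an annotated exon of an antisense RNA, and the others overlap no annotated exon. They lie at chr5:43313513-43313582 (HMGCS1, - strand), chr16:88663167-88663256 (MVD, - strand), chr7:155297688-155297767 (INSIG1, + strand), chr10:100346993-100347072 (SCD, + strand) and chr11:78063746-78063825 (THRSP, + strand).
SREBF2: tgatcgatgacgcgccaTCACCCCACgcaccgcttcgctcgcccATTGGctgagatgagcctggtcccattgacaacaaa
HMGCS1: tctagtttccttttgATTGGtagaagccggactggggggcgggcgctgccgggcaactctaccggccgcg
MVD: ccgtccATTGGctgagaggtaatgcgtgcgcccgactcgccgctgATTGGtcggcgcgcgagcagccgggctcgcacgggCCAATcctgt
INSIG1: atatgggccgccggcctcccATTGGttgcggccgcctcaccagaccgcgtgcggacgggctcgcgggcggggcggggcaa
SCD: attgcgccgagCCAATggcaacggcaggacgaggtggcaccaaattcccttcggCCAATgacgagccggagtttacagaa
THRSP: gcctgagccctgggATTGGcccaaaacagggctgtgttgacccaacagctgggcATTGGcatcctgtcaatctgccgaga
The MVD stretch holds 3 such boxes, SCD and THRSP 2 each, and HMGCS1, INSIG1 and SREBF2 1 each. A match describes these letters and is not a measured binding site.

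Between day 10 and day 20 the lines differed in part of the program. In HCC1806 spheroids 3 of the 36 genes were higher at day 20 and 0 were lower, where 3.20% of all genes were higher, 3.60% lower and 6.80% changed. In BT474 spheroids 1 was lower and 0 were higher, where 0.189% of all genes were lower, 0.0922% higher and 0.281% changed. The estimate was above 0 for 26 of the 36 genes in HCC1806 and for 4 of 36 in BT474. Their medians were 0.20 and -0.25 on the log2 scale, beside 0.00 over all genes in each line. The share of all genes above 0 was not counted, and the 36 genes share the same libraries, so their signs are not independent. The test of the difference between the lines in the day 20 against day 10 change called 7 genes, all more positive in HCC1806, where 1.56% of all genes were, 1.11% were more negative and 2.67% differed in either direction. They were MVK, MVD, SQLE, DHCR7, STARD4, ACSS2 and FABP5.

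Of the 7, STARD4 had the largest difference between the lines. HCC1806 spheroids had 37.5 and 34.2 CPM at day 20, against 22.0 and 26.1 CPM at day 10 (log2 fold change 0.58 ± 0.17, adjusted p = 0.0650). BT474 spheroids had 4.65 and 3.98 CPM at day 20, against 9.07 and 8.76 CPM at day 10, and their log2 fold change of -1.04 ± 0.20 passed the test (adjusted p = 0.0482). The difference, HCC1806 minus BT474, was 1.62 ± 0.26 (adjusted p = 0.00445). SQLE had 224 and 180 CPM at day 20 in HCC1806 spheroids, against 136 and 140 CPM at day 10, and in BT474 spheroids 113 and 111 CPM at day 20, against 147 and 161 CPM at day 10. The libraries of the 2 days did not overlap in either line, but neither line's own change passed the test. The difference between the lines was 1.02 ± 0.22 (adjusted p = 0.0355).

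MVK, which phosphorylates mevalonate, differed by 0.57 ± 0.12 (adjusted p = 0.0247), with 59.0 and 53.9 CPM at day 20 against 47.8 and 47.1 CPM at day 10 in HCC1806, and 53.7 and 54.0 CPM at day 20 against 65.8 and 68.6 CPM at day 10 in BT474. The line differences were 0.64 ± 0.15 for MVD (adjusted p = 0.0416), 0.78 ± 0.17 for DHCR7 (adjusted p = 0.0292) and 0.71 ± 0.15 for ACSS2 (adjusted p = 0.0247). For these 3, as for MVK, neither line's own change passed the test. FABP5 was higher in HCC1806, with 371 and 346 CPM at day 20, against 152 and 159 CPM at day 10 (1.21 ± 0.19, adjusted p = 0.00636). In BT474 it had 5.58 and 5.96 CPM at day 20, against 7.38 and 7.21 CPM at day 10, and the difference between the lines was 1.54 ± 0.30 (adjusted p = 0.0337). FABP5 has 13 pseudogenes by symbol, and reads of near-identical copies may be split among them. In HCC1806 spheroids the pseudogenes held 3382 and 3324 counts at day 20 and 1632 and 1258 at day 10. FABP5 itself held 14183 and 14448 counts at day 20 and 6528 and 6064 at day 10. The part of split reads in the FABP5 values was not tested. The other 2 genes called in HCC1806 were IDI1, the isomerase of isopentenyl pyrophosphate (86.2 and 77.0 CPM at day 20, against 55.8 and 58.4 CPM at day 10, 0.52 ± 0.14, adjusted p = 0.0393), and DGAT2 (32.0 and 30.9 CPM, against 21.6 and 18.8 CPM, 0.65 ± 0.14, adjusted p = 0.0115).

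**Figure D3:**
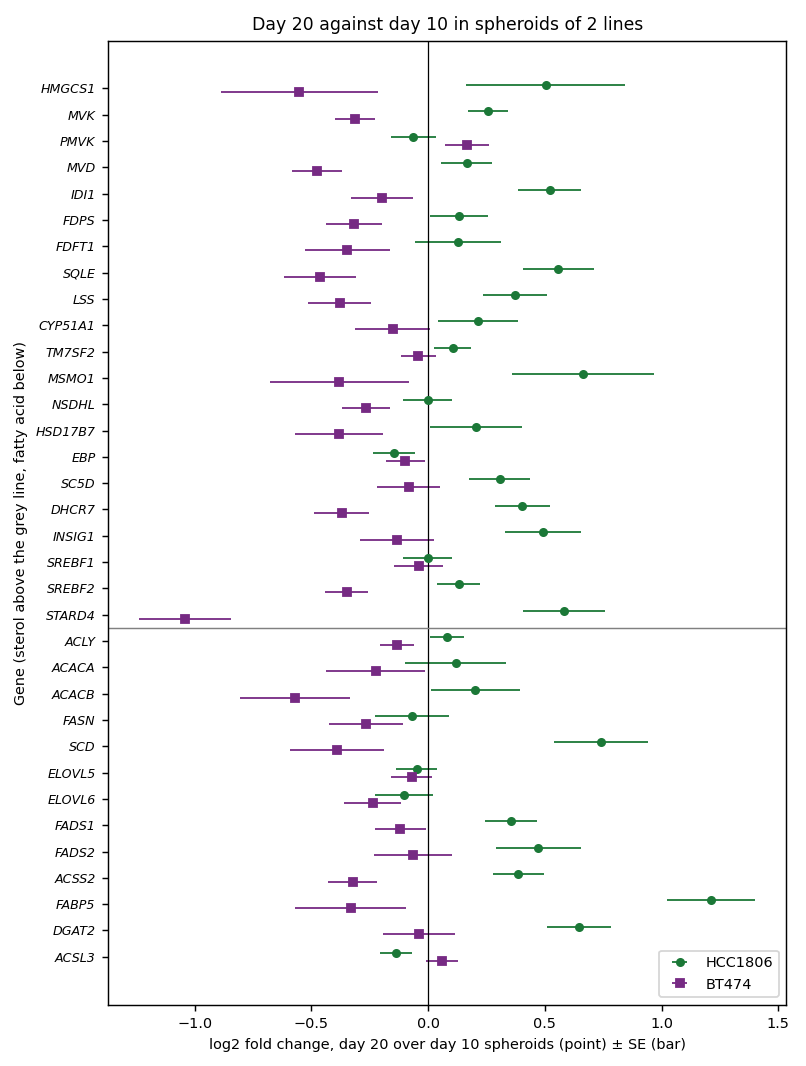
Log2 fold change of day 20 over day 10 spheroids (point) with its standard error (bar) for 34 of the 36 genes, HCC1806 as circles and BT474 as squares; CD36 and THRSP are left out because 1 of the lines had few counts. Most HCC1806 points lie right of 0 and most BT474 points left of it, and STARD4 and FABP5 are the widest apart.

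These calls are few and depend on the shared spread. All 3 HCC1806 calls and the BT474 call were lost when each line's 6 libraries were fitted alone or when the HCC1806 monolayers joined the fit, and the 7 line differences also fell to 0 with the monolayers. Leaving out single libraries moved the 7 line differences between 1, without HCC1806 day 10 spheroid replicate 2, HCC1806 day 20 spheroid replicate 1 or any BT474 spheroid library, and 17, without BT474 monolayer replicate 1; it was 2 without HCC1806 day 10 spheroid replicate 1 and 16 without BT474 monolayer replicate 2. The 3 HCC1806 calls moved to 0 without HCC1806 day 10 or day 20 spheroid replicate 1, to 1 without day 10 replicate 2, to 7 without day 20 replicate 2, and to 14 and 13 without BT474 monolayer replicate 1 and 2. The BT474 call was lost without any 1 of the 8 spheroid libraries, and became 10, all lower, without either BT474 monolayer library.

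Of 15 further uptake and droplet genes, 5 were higher and 2 were lower in HCC1806 spheroids at day 20. FABP4, a fatty acid carrier best known from adipocytes and macrophages, had 353 and 310 CPM at day 20, against 67.4 and 60.9 CPM at day 10 (2.38 ± 0.10, adjusted p = 2.94e-07). It was at 0 in all BT474, CAL148 and ZR-75-30 libraries. MGLL, the monoglyceride lipase, had 23.9 and 23.2 CPM at day 20, against 7.24 and 6.15 CPM at day 10 (1.82 ± 0.09, adjusted p = 1.19e-07). FABP7 had 1.75 and 2.94 CPM at day 20, against 0.0934 and 0.209 CPM at day 10. PPARGC1A, a coactivator of oxidative metabolism, had 2.41 and 2.27 CPM at day 20, against 0.770 and 0.680 CPM at day 10 (1.69 ± 0.25, adjusted p = 0.00104). Of the 10 export and storage genes 0 were higher and 2 lower, of the 16 elongation and activation genes 1 was higher and 1 lower, and of the 14 further sterol and 8 oxidation genes 0 passed the test. Of the 4 adipocyte markers, ADIPOQ and LEP were at 0 in every HCC1806 spheroid library and the 4 summed to 0.732 and 0.981 CPM at day 20, and 0.280 and 0.733 CPM at day 10. The 4 leukocyte and macrophage markers summed to 0.889 and 1.82 CPM at day 20, and 1.91 and 2.43 CPM at day 10.

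In spheroids the 2 lines held the program at very different levels. Averaged over both days, 27 of the 36 genes were lower in HCC1806 than in BT474 and 7 were higher, in a comparison where 79.1% of all genes differed, 37.3% lower and 41.8% higher. The median log2 fold change was -0.97 over the sterol genes and -1.21 over the fatty acid genes, beside 0.08 over all genes. SREBF2 and ACSL3, a fatty acyl-CoA ligase, were the 2 genes not called. The 7 genes higher in HCC1806 were SQLE, SC5D (a desaturase late in sterol synthesis), STARD4, ACACB, CD36, FABP5 and DGAT2. TM7SF2 averaged 23.9 and 25.6 CPM in HCC1806 spheroids at day 10 and day 20, against 280 and 271 CPM in BT474 spheroids (log2 fold change -3.47 ± 0.06). FADS2 averaged 17.5 and 24.2 CPM in HCC1806 spheroids, against 995 and 949 CPM in BT474 spheroids (-5.55 ± 0.14). ACACA, the cytosolic acetyl-CoA carboxylase, averaged 133 and 144 CPM in HCC1806 spheroids, against 764 and 651 CPM in BT474 spheroids (-2.34 ± 0.16).

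THRSP had 1 count over the 4 HCC1806 spheroid libraries, against 639 over the 4 BT474 spheroid libraries, a ratio of 0.00183. Its 95% interval of 4.62e-05 to 0.0102 covers counting error only, takes counts as independent and may be too narrow. CD36 ran the other way, with 5161 counts in HCC1806 spheroids against 34 in BT474 spheroids, a ratio of 177 (95% interval 127 to 256). The fitted log2 fold change of CD36 was 7.44 ± 0.31 and that of FABP5 5.19 ± 0.17. ACACB (3.02 ± 0.15), DGAT2 (2.34 ± 0.11) and STARD4 (2.25 ± 0.13) were also higher in HCC1806, and ACSS2 was lower (-2.20 ± 0.08). Each of these had an adjusted p under the threshold in edgeR's test. The count of 34 stayed between 33 and 35 when single libraries were left out. Of the further genes, 1 of 14 sterol genes was higher and 9 lower in HCC1806, 8 of 15 uptake and droplet genes were higher and 4 lower, and 5 of 8 oxidation genes were higher and 2 lower. The 2 lines differ in medium as well as in origin, and their parts cannot be told apart.

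Against their own monolayers, HCC1806 spheroids showed few called changes in these genes, and the 2 monolayer libraries disagreed. At day 10, 1 gene was higher (CD36) and 1 lower (EBP), where 5.14% of all genes were higher, 3.58% lower and 8.72% changed. At day 20, 2 were higher (CD36 and SC5D) and 1 lower (EBP), where 6.24% of all genes were higher, 4.85% lower and 11.1% changed. In monolayer replicate 2, 19 of the 21 sterol genes exceeded replicate 1, with a median log2 difference of 1.23, where 54.2% of all genes with a mean of at least 5 CPM did and their median was 0.14. HMGCS1 had 10.8 and 260 CPM in replicates 1 and 2, SQLE 23.5 and 260 CPM, FASN 199 and 1271 CPM and SCD 223 and 1300 CPM. CYP51A1, the lanosterol demethylase, had 1 count in replicate 1 and 557 in replicate 2.

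The 4 spheroid libraries lay between the 2 monolayer libraries for 12 of the 21 sterol genes and 6 of the 15 fatty acid genes. For these genes the direction of a change therefore rested on which monolayer library was used. The same count was not made over all genes. Of all genes with a mean of at least 5 CPM in the monolayers, 48.6% differed more than 2-fold between the 2 libraries. Fits without replicate 1 and fits without replicate 2 gave opposite directions for part of the 36 genes. At both days these included IDI1, FDPS, LSS, CYP51A1, DHCR7, TM7SF2, ACLY, FASN, ELOVL5 and ACSL3. The share of all genes with opposite directions in these fits was not counted. FASN, for example, had a day 10 log2 fold change of -0.90 without replicate 1 and 1.87 without replicate 2. In these fits the lone monolayer library is assumed to vary like the other groups. Replicate 1 is the library with the high mitochondrial share and interferon sum and the low mitotic sum given above; the part of these in the sterol and fatty acid values was not tested.

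**Figure D4:**
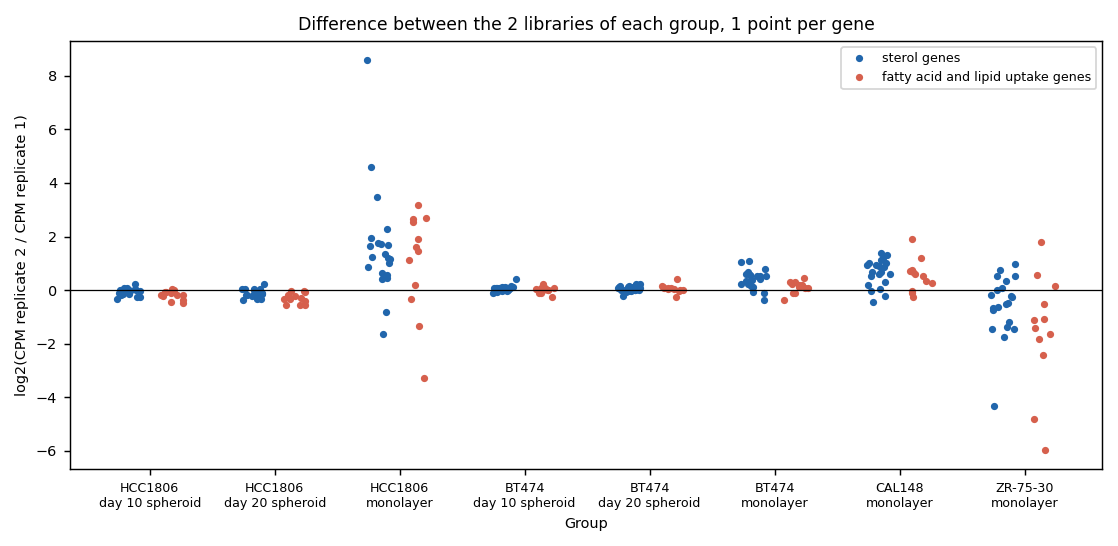
Log2 ratio of CPM in replicate 2 over replicate 1 within each of the 8 groups, 1 point per gene, sterol genes in blue and fatty acid genes in red; CD36, FABP5 and THRSP are left out because of low counts in some groups. The points lie close to 0 in the 4 spheroid groups, spread widely and mostly above 0 in HCC1806 monolayers, and mostly below 0 in ZR-75-30 monolayers.

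CD36, SC5D and DGAT2 were called higher, and EBP lower, with either monolayer library left out at both days, and FABP5 was called higher at day 20. CD36, the fatty acid translocase of the cell surface, had 34.3 and 37.1 CPM in HCC1806 day 10 spheroids and 30.6 and 26.4 CPM in day 20 spheroids, against 0.355 and 0.0544 CPM in monolayers, where it had 9 and 2 counts. The ratio, scaled for depth, was 201 at day 10 (95% interval 112 to 404) and 160 at day 20 (89.4 to 322). These intervals cover counting error only, take counts as independent and may be too narrow. The fitted log2 fold changes were 7.53 ± 1.10 (adjusted p = 0.00686) and 7.21 ± 1.09 (adjusted p = 0.00658). In BT474, CD36 had 0.243 and 0.140 CPM at day 10 and 0.374 and 0 CPM at day 20, against 0.404 and 0.495 CPM in monolayers. The spheroid against monolayer change was larger in HCC1806 than in BT474 by 8.80 ± 1.43 at day 10 (adjusted p = 0.0324) and 8.47 ± 1.44 at day 20 (adjusted p = 0.0265), and it was the 1 gene of the 36 called at each time. Over all genes, 1.35% differed between the lines at day 10, 0.956% more positive and 0.392% more negative in HCC1806, and 2.77% at day 20, 1.79% and 0.980%. The day 10 rise against monolayers lost its call without either HCC1806 day 10 spheroid library, and the line differences lost theirs without any 1 HCC1806 spheroid or BT474 monolayer library, among others, while the fitted change stayed above 6 on the log2 scale in each of those fits. GNAT3, on the opposite strand at this locus, had at most 0.230 CPM in any library. Endothelial cells and macrophages also carry CD36. The 4 endothelial markers summed to 2.93 to 3.29 CPM in HCC1806 day 10 spheroids and 1.59 to 1.79 CPM in day 20 spheroids, against 0.789 to 1.85 CPM in monolayers, and PECAM1 reached at most 0.560 CPM in a spheroid library. The 4 leukocyte and macrophage markers summed to 1.91 to 2.43 CPM at day 10 and 0.889 to 1.82 CPM at day 20, against 0.870 to 7.06 CPM in monolayers. CD163 was at 0 in all 6 libraries and CD68 at 0 in both day 20 libraries. Each library was made from 1 cell line, and whether any other cells had a part in the CD36 values was not tested.

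SC5D had 125 and 128 CPM in HCC1806 day 20 spheroids and 99.5 and 106 CPM in day 10 spheroids, against 23.9 and 56.2 CPM in monolayers. Its log2 fold change at day 20 was 1.65 ± 0.36 (adjusted p = 0.0224), and the day 10 value did not pass the test. EBP, the isomerase that shifts the sterol ring double bond, had 36.04 and 35.6 CPM at day 10 and 31.9 and 32.5 CPM at day 20, against 55.6 and 73.3 CPM in monolayers. The log2 fold change was -0.86 ± 0.17 at day 10 (adjusted p = 0.0201) and -1.01 ± 0.17 at day 20 (adjusted p = 0.00985). The EBP call at day 10 and the SC5D call at day 20 were each lost without any 1 of the 8 spheroid libraries, and the EBP call at day 20 without either HCC1806 day 20 library. DGAT2 had 21.6 and 18.8 CPM at day 10 and 32.0 and 30.9 CPM at day 20, against 12.3 and 1.28 CPM in monolayers; the spheroid libraries lie above both monolayer libraries, and neither comparison passed the test.

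**Figure D5:**
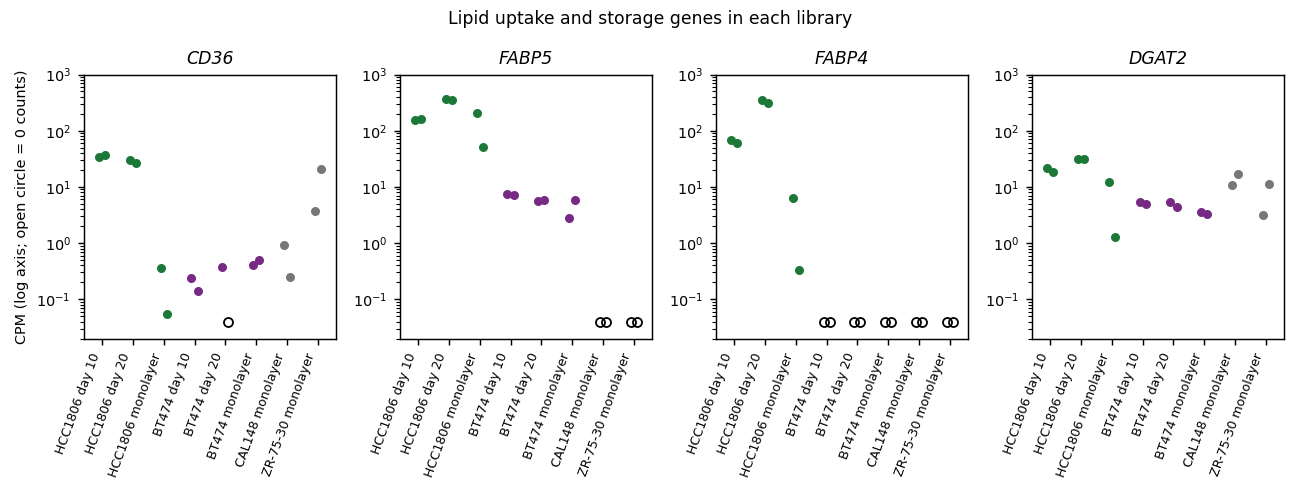
CPM of CD36, FABP5, FABP4 and DGAT2 in each library on a log axis, 2 points per group, with open circles for 0 counts. CD36 is near 30 CPM in all 4 HCC1806 spheroid libraries and under 1 CPM in the HCC1806 monolayers and all BT474 libraries, FABP4 is seen in HCC1806 libraries alone, and FABP5 is at 0 in CAL148 and ZR-75-30.

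Some further lipid genes were called in HCC1806 spheroids against monolayers. At day 10, 1 of 10 export and storage, 1 of 16 elongation and activation and 0 of 15 uptake and droplet genes were higher. So were 2 of 6 regulators and 1 of 8 oxidation genes. In this order 0, 0, 1, 0 and 0 were lower. At day 20, 1, 2, 1, 2 and 0 were higher and 1, 2, 1, 0 and 0 lower. Over all genes, 5.14% were higher and 3.58% lower at day 10, and 6.24% and 4.85% at day 20. PPARGC1A had 59 counts over the 2 day 10 libraries and 187 over the 2 day 20 libraries, against 0 in both monolayers, which is at least 15.1-fold and at least 48.4-fold higher with a floor of 3 counts over the group. PPARA had 105 and 90.2 CPM at day 10 and 100.7 and 85.5 CPM at day 20, against 41.2 and 35.6 CPM in monolayers (1.34 ± 0.22 at day 10, adjusted p = 0.00899). MYLIP, the LXR-induced ligase that removes the LDL receptor, had 65.4 and 73.8 CPM at day 10 and 44.7 and 44.1 CPM at day 20, against 26.1 and 25.4 CPM in monolayers (1.43 ± 0.15 at day 10, adjusted p = 0.00241). For PPARA and MYLIP the 2 monolayer libraries lay close together. MGLL was lower at day 10, with 7.24 and 6.15 CPM, against 13.2 and 25.8 CPM in monolayers (-1.55 ± 0.28, adjusted p = 0.0135), and FABP4 was higher at day 20, with 353 and 310 CPM, against 6.24 and 0.326 CPM in monolayers (6.68 ± 1.31, adjusted p = 0.0328). Of the 14 further sterol genes, 2 were higher and 0 lower at each day, namely MBTPS1, a protease that cuts SREBPs, and INSIG2, both named after their values were seen.

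Among the monolayers, lines grown in the same medium were compared. Against BT474, CAL148 was lower for 4 of the 36 genes and higher for 0, where 3.88% of all 19594 genes were lower, 2.50% higher and 6.37% changed. MVD had 13.4 and 25.7 CPM in CAL148, against 131 and 165 CPM in BT474 (log2 fold change -2.90 ± 0.54, adjusted p = 0.0240). FADS1, the delta-5 desaturase, had 19.0 and 28.8 CPM in CAL148, against 130 and 148 CPM in BT474 (-2.52 ± 0.38, adjusted p = 0.0130). ACSS2 had 22.9 and 37.1 CPM in CAL148, against 216 and 269 CPM in BT474 (0.125-fold, adjusted p = 0.00813). FABP5 had 0 counts in CAL148, against 364 in BT474, at least 116-fold lower with a floor of 3 counts over the group. All 4 calls were lost without any 1 of the BT474 or CAL148 libraries, and the count was 10 without either HCC1806 monolayer library.

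Against ZR-75-30, HCC1806 monolayers were higher for 2 genes and lower for 3, where 12.5% and 8.04% of all genes were and 20.5% in either direction, and the median over all genes was 0.19. FADS1 had 59.7 and 67.7 CPM in HCC1806, against 1.39 and 0.975 CPM in ZR-75-30 (5.79 ± 0.45, adjusted p = 0.00113). FABP5 had 7066 counts in HCC1806, against 0 in ZR-75-30, at least 2140-fold higher. PMVK had 39.0 and 22.0 CPM in HCC1806, against 165 and 325 CPM in ZR-75-30 (-2.95 ± 0.46, adjusted p = 0.00690). MSMO1, which removes methyl groups from the sterol ring, had 19.6 and 39.7 CPM in HCC1806, against 254 and 161 CPM in ZR-75-30 (-2.75 ± 0.57, adjusted p = 0.0166). CD36 had 0.355 and 0.0544 CPM in HCC1806, against 3.68 and 20.6 CPM in ZR-75-30 (-5.86 ± 1.35, adjusted p = 0.0232). The 5 folds are far larger than the shift of 0.19. The count was 15 without HCC1806 monolayer replicate 2 and 4 without either ZR-75-30 library. The MSMO1 call was lost without ZR-75-30 monolayer replicate 1, and the CD36 call without ZR-75-30 monolayer replicate 2.

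Both lines in this pair have a discordant pair of libraries. In ZR-75-30, replicate 1 had 3178 CPM of SCD and 55.0 CPM of FADS2, and replicate 2 had 114 and 0.877 CPM. The median log2 difference, replicate 2 minus replicate 1, was -1.27 over the 12 fatty acid genes with at least 5 CPM and -0.50 over the 21 sterol genes. In CAL148 it was 0.56 and 0.69. Over all genes with a mean of at least 5 CPM in the pair, the median was -0.060 in ZR-75-30 and 0.011 in CAL148. With the line as the unit, 2 triple-negative lines against 2 ERBB2-positive lines, 0 of the 36 genes and 0 of 18909 genes (0.00%) passed in edgeR, of which 1020 had an unadjusted p under 0.05. DESeq2 also called 0 of the 36, and edgeR without a count filter called 1. The median log2 fold change over the 36 genes was -0.57, beside 0.04 over all genes.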

How the data were processed

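Reads had been aligned with HISAT2 2.2.1 and counted per gene with featureCounts 2.0.6 on GRCh38, per the submitters' processing notes. The deposited table holds whole-number counts for 58735 genes in 16 libraries, and gene lengths from the same table gave CPM per kilobase. Strand setting and treatment of multi-mapping reads are not given in the sources used here. The authors' FPKM table was not used here.

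Counts were tested across all genes with edgeR 4.0.16 in R 4.3.3 (TMM, filterByExpr with a minimum count of 10 and a minimum total of 15, robust glmQLFit and glmQLFTest, Benjamini-Hochberg over all genes tested, called at an adjusted p under 0.05). Standard errors are the absolute log2 fold change divided by the square root of F. BT474 comparisons, comparisons of days and of lines in spheroids used 10 libraries, without the 2 HCC1806 monolayers, whose discordance would set the spread of comparisons they are not in. HCC1806 spheroids against monolayers, and line differences in that change, used 12 libraries. Monolayers of the 4 lines used 8, and the comparison of subtypes used counts summed per line. Alternatives were edgeR's RLE factors, no count filter, DESeq2 1.42.0, limma 3.58.1 (voom with sample weights), a replicate block, other sets of libraries, and each library left out. The test was checked on simulated counts.

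Members, gene lists and the sets of libraries were chosen with earlier results of these data known. Every member called in a comparison is named, and of the other pathway genes those with the largest change, at most 5 per comparison. Lists of other lipid genes, markers and library quality were written from general knowledge. CPM values are on 1 scale over all 16 libraries. Intervals and floors of 3 counts cover counting error only, with counts taken as independent. Among low counts, even values outnumbered odd ones 1.51 to 2.04 times in the libraries. Counts may therefore not be independent, the intervals may be too narrow, and a floor of 3 counts may stand for fewer fragments. Promoter sequences come from RefSeq (GRCh38.p14) and were searched on both strands.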

Additional observations from a re-analysis of the deposited data

Results flagged for a closer look

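Line differences in the day 20 against day 10 change of spheroids (HCC1806 minus BT474, log2 scale, edgeR) singled out 7 genes because the difference itself passed its test. It was 0.57 for MVK, 0.64 for MVD, 1.02 for SQLE, 0.78 for DHCR7, 1.62 for STARD4, 0.71 for ACSS2 and 1.54 for FABP5. The adjusted p ran from 0.00445 for STARD4 to 0.0416 for MVD. In all 7, both HCC1806 day 20 libraries lay above both HCC1806 day 10 libraries, and both BT474 day 20 libraries lay below both BT474 day 10 libraries. The 7 were picked by a test on these same libraries, so their positions add no support. The share of all genes placed in this way was not counted. For MVD the gap in HCC1806 was small, with 43.36 CPM in day 20 replicate 1 and 43.15 CPM in day 10 replicate 1.

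CD36 was singled out at both days because its spheroid against monolayer change was larger in HCC1806 than in BT474 by 8.80 at day 10 and by 8.47 at day 20. It rests on 11 counts in the HCC1806 monolayers, 9 in replicate 1 and 2 in replicate 2. No group of these data is large enough for a test of single outlying libraries.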

How the results depend on the processing

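All values here are counts of the 36 genes called. For BT474 day 10 spheroids against monolayers (10), no count filter gave 16 and the 12-library fit with the HCC1806 monolayers 0; for day 20 (10), the 12-library fit gave 0. For day 20 against day 10 in BT474 (1), no filter gave 7, DESeq2 3, and 12 libraries or the line alone 0; in HCC1806 (3), they gave 12, 10 and 0. The line difference in that change (7) was 15 without a filter, 11 with DESeq2 and 0 with 12 libraries. HCC1806 spheroids against monolayers gave 4 at day 10 (2) and 7 at day 20 (3) without a filter, 6 at day 20 with DESeq2, 0 and 1 with voom weights, and 0 at both days with the line alone. The line differences against monolayers (1 each) were 3 and 4 without a filter, 2 and 3 with DESeq2, and 0 with voom weights or all 16 libraries. CAL148 against BT474 (4) gave 10 without a filter, 7 with DESeq2 and 15 with all 16 libraries, HCC1806 against ZR-75-30 (5) gave 8 with all 16, and the subtype comparison (0) gave 1 without a filter. RLE factors left each count within 1.5 times.

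Replicate numbers did not pair the libraries: replicate differences of the groups correlated between -0.44 and 0.08. The -0.44 was between HCC1806 and ZR-75-30 monolayers, and the next lowest was -0.10. HCC1806 monolayer replicate 1 and ZR-75-30 monolayer replicate 2 had mitochondrial shares of 14.95% and 17.74%. The part of this in the comparison of these 2 lines was not tested. With the replicate number as a block, the BT474 day 20 against day 10 count was 0, its line difference 4 and the CD36 line difference at day 10 0.

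Leaving out 1 library at a time, the ranges were 2 to 20 for BT474 at day 10, 3 to 12 at day 20, 0 to 10 for day 20 against day 10 in BT474, 0 to 14 in HCC1806, 1 to 17 for their difference, 33 to 35 for HCC1806 against BT474 spheroids, 0 to 28 and 1 to 26 for HCC1806 spheroids at day 10 and day 20 against monolayers, 0 to 23 and 0 to 25 for the line differences in those changes, 0 to 10 for CAL148 against BT474, 4 to 15 for HCC1806 against ZR-75-30, and 0 to 0 for subtypes with a line left out.

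Of 81 gene results, 81 kept direction and call with RLE factors and with DESeq2, 79 without a filter and 73 with the block; 25 did with 12 libraries, where 40 lost the call, and 7 of 7 lost it with voom weights. None reversed in any of these. The causes were not tested. With 2 libraries per group, low-count genes such as THRSP and CD36 have wide errors.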
